A study of Homo sapiens with 4 samples.

Results

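The c-Jun peaks lost with TNFalpha were 620 genomic regions that were called as bound in BT549 cells without TNFalpha and were not called in cells that received it. BT549 is a long-established cell line from a human triple-negative breast cancer. The regions were taken from peak lists of c-Jun ChIP-seq, in which chromatin fragments recovered with an antibody are sequenced and piled-up fragments are called as peaks. A region entered the group if it was a peak against the IgG control without TNFalpha, overlapped a peak called against input chromatin in the same library by at least 1 bp, and overlapped no peak of either list of the library with TNFalpha. Of the 3323 peaks called against IgG without TNFalpha, 3086 were also called against input and are named both-control peaks here. The 620 lost peaks were 20.1% of these 3086 (95% Wilson interval 18.7 to 21.5%, counting error only), and the remaining 2466 are named kept peaks. The members were thus selected on the presence or absence of peak calls in both c-Jun libraries, so the lack of a call with TNFalpha describes the group and is not a result.

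The series held 4 libraries, all from BT549 cells that were serum-starved overnight. The c-Jun library without TNFalpha and the c-Jun library with TNFalpha were made with the same antibody (H-79), 1 library each. The normal rabbit IgG library and the input library, which has no antibody step, both came from cells given TNFalpha. Peaks of the untreated cells were therefore called against controls from treated cells. The sample labels give 6 hours of TNFalpha and the series text gives 3 hours. With 1 library per condition there was no replicate, so no p-value could be computed, and every difference below describes these 2 c-Jun libraries. The deposited lists held 4439 peaks against IgG and 8040 against input with TNFalpha, and 7919 against input without it. Read numbers were not used here and the depth of each library is unknown, so a peak that was not called may still have had signal below the calling limit.

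The c-Jun protein is one of the Jun members of AP-1, a family of leucine-zipper transcription factors that bind DNA as dimers with Jun, Fos or ATF proteins. TNFalpha binds a receptor at the cell surface and activates the kinase JNK, which phosphorylates c-Jun, and in parallel activates NF-kB. AP-1 is known to occupy many enhancers far from gene starts, and in triple-negative breast cancer cells it is associated with mesenchymal and invasive gene programmes.

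Lost peaks lay mainly in the lower part of the score order. Their scores against IgG, given per peak by the authors' peak caller, ran from 50.1 to 213 with a median of 64.2, and the middle 50% lay between 56.4 and 76.3. The lowest score in the list was 50.02, so the weakest lost peaks sat at the calling limit. Kept peaks had a median of 88.0 and reached 522. In ranks of the 3323-peak list, where rank 1 is the highest score, the median lost peak held rank 2306 (95% binomial interval of the median 2246 to 2382) and the median kept peak rank 1334 (1278 to 1386). No lost peak was among the top 5% of the list, where 166 both-control peaks lay. A count of 0 of 620 allows a share of up to 0.484%. The top 10% of the list held 3 lost peaks, the top 25% held 33 (5.32% of lost peaks, 95% Wilson interval 3.81 to 7.38%) and the upper 50% held 142 (22.9%, 19.8 to 26.4%). Among all both-control peaks, 26.8% were in the top 25% and 53.6% in the upper 50%.

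**Figure D1:**
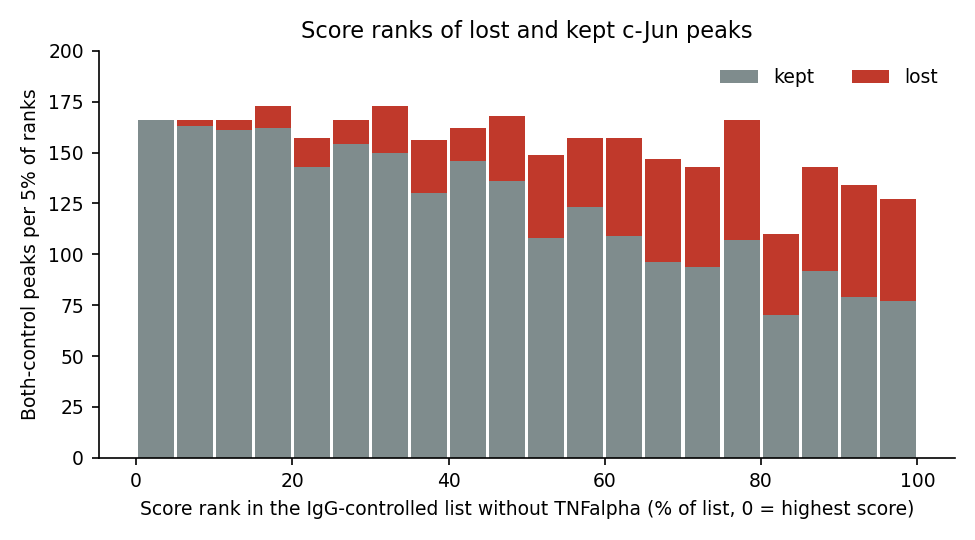
Number of both-control peaks (vertical axis) in each 5% of ranks of the IgG-controlled list without TNFalpha (horizontal axis, highest scores at the left), with kept peaks in grey and lost peaks stacked in red. The first 5% held 0 lost and 166 kept peaks, and the last 5% held 50 lost and 77 kept peaks.

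Losses rose towards low scores, with falls between some neighbouring 5% of ranks. From the highest scores down, the percentage of both-control peaks that were lost was 1.81% between 5 and 10% of the list, 8.92% between 20 and 25%, 19.0% between 45 and 50% and 34.7% between 65 and 70%. In between, the percentage fell to 7.23% at 25 to 30% of the list and from 16.7 to 9.88% at 40 to 45%. It also fell from 27.5 to 21.7% at 55 to 60%. The lower values rest on 12 of 166, 16 of 162 and 34 of 157 peaks. No interval was computed for them, and the falls were not tested. Past 70% of the list it stayed between 34.3% and 41.0% in each further 5% of ranks. The lowest 3 score deciles of the both-control peaks held 350 of the 620 lost peaks and the highest 3 held 39.

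The second control gave the same order of the groups. Each of the 620 lost and 2466 kept peaks had the same start and end in the IgG-controlled and the input-controlled list, so both calls of a peak refer to the same interval and differ only in score. Against input, lost peaks had a median score of 93.1 (middle 50% of peaks 71.3 to 121) and kept peaks of 142 (100.1 to 206). Lost peaks were higher placed in the longer input-controlled list, with a median at 38.6% of that list against 69.4% of the IgG-controlled list. This was also seen in kept peaks, at 20.5% and 40.1%. In each of the 8 score deciles with at least 20 lost peaks, the median input score of lost peaks was below that of kept peaks of similar IgG score. Between IgG scores of 66.1 and 72.1, for example, it was 93.2 for lost and 117 for kept peaks. In the third decile, which held the most lost peaks (125), it was 92.1 and 94.7. Kept peaks include those called only against input with TNFalpha. The rule thus favours a higher input score in kept peaks, and this difference is a description. Across peaks, the 2 scores were related less closely in lost peaks (Spearman's rho 0.42 over 620 peaks) than in kept peaks (0.69 over 2466 peaks). Both scores come from the same c-Jun reads, and lost peaks span a narrower range of scores.

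Kept peaks could be graded by where they were called with TNFalpha, and lost peaks resembled 1 of these grades in IgG score. With TNFalpha, 2066 kept peaks were called against both controls, 351 against input only and 49 against IgG only. The 351 peaks that remained only against input had a median IgG score without TNFalpha of 66.6, close to the 64.2 of lost peaks, while peaks that remained in both lists had 94.6. The 351 and the lost peaks differed in their input score, with medians of 136 and 93.1. A score against input is the measure by which the 351 peaks were kept, so their higher input score is a description. Both groups also lacked a call against IgG with TNFalpha, so their similar IgG scores are a description as well. When a call against both controls was required with TNFalpha, 1020 of the 3086 both-control peaks counted as lost, over 1.5 times the 620. With the IgG-controlled lists alone, 1082 of all 3323 IgG-controlled peaks counted as lost, a wider set that includes peaks not called against input.

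Lost peaks were also narrower. Their widths ran from 177 to 1131 bp with a median of 337 bp (95% binomial interval 332 to 346 bp), against 412 bp (407 to 419 bp) for kept peaks. Width followed score in both groups, with a Spearman's rho of 0.47 in lost and 0.64 in kept peaks. Within deciles of score the difference was much smaller. Lost peaks were narrower in 6 of the 8 deciles with at least 20 lost peaks, by 11.5 to 37 bp at the median, and were wider by 8.5 bp in the second decile and by 9 bp in the eighth.

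**Figure D2:**
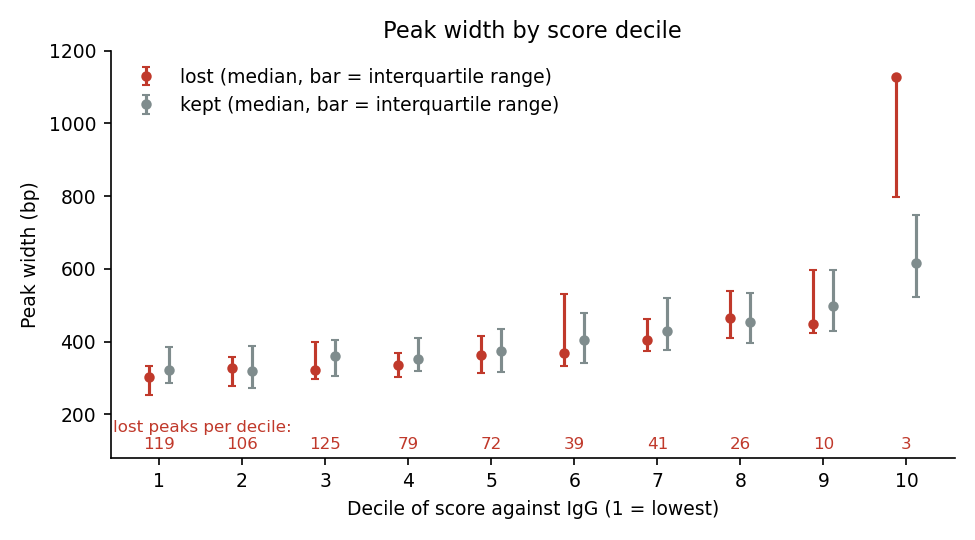
Median peak width in bp (vertical axis, bars give the interquartile range) of lost peaks in red and kept peaks in grey, by decile of the score against IgG (horizontal axis, lowest scores at the left), with the number of lost peaks printed per decile. Medians of the groups differ by at most 37 bp in the deciles with at least 20 lost peaks, and the 3 lost peaks of the highest decile have a median of 1127 bp.

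The lost peak of highest score was one of the widest and lay far from any peak with TNFalpha. It lay at chr10:78435281-78436407 on hg19 (all positions are 1-based), scored 213 against IgG (rank 177 of 3323) and 252 against input, and was 1127 bp wide. With TNFalpha the closest call lay at a distance of 487 kb and was itself near the calling limit, with a score of 50.8. The next lay at chr8:91952565-91953695, with a score of 185 (rank 254), and was the widest lost peak at 1131 bp. Here a weaker kept peak lay 1.52 kb away, at higher coordinates. Without TNFalpha it scored 73.5 against IgG and 122 against input. This neighbour was the one still called with TNFalpha, against input only, with a score of 78.5. The third lay at chr5:151078657-151079126 (score 184, rank 262, width 470 bp), and its closest call with TNFalpha lay 197 kb off.

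At the fourth locus the stronger of a pair of adjacent peaks was not called and the weaker was. The lost peak at chr4:86953668-86954189 scored 159 with the IgG control and 243 with the input control. The adjacent kept peak, chr4:86954304-86954733 and 115 bp away, had scores of 86.1 and 180. With TNFalpha, a single input-controlled peak of score 86.4 overlapped the weaker peak and came within 81 bp of the stronger. This lost peak therefore lies close to the limit of the rule, and it no longer counted as lost when peaks within 500 bp were treated as hits.

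The other peaks among the 10 of highest score had scores of 136 to 152. They lay at chr7:100464696-100465116, at chr3:188311946-188312396, chr3:15838989-15839834 and chr3:167532144-167532766, at chr20:48077507-48077909 and at chr12:66285863-66286294. The peak on chromosome 12 had the highest input score of all lost peaks, 275, and that on chromosome 20 had 266. The peak at 167532144 on chromosome 3 was the farthest of the 10 from any peak with TNFalpha, at 1.21 Mb. Around the peak at 188311946 on chromosome 3, peaks called with TNFalpha against both controls lay 9.67 kb away (score 66.8 against IgG) and about 15 kb from its centre (score 164 against IgG), and no peak without TNFalpha was called at either place. Around 7 of the 10 peaks, no peak with TNFalpha was called within 20 kb of the centre. Among all 620 lost peaks a similar share, 416 (67.1%), lay over 20 kb from any peak with TNFalpha, edge to edge.

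**Figure D3:**
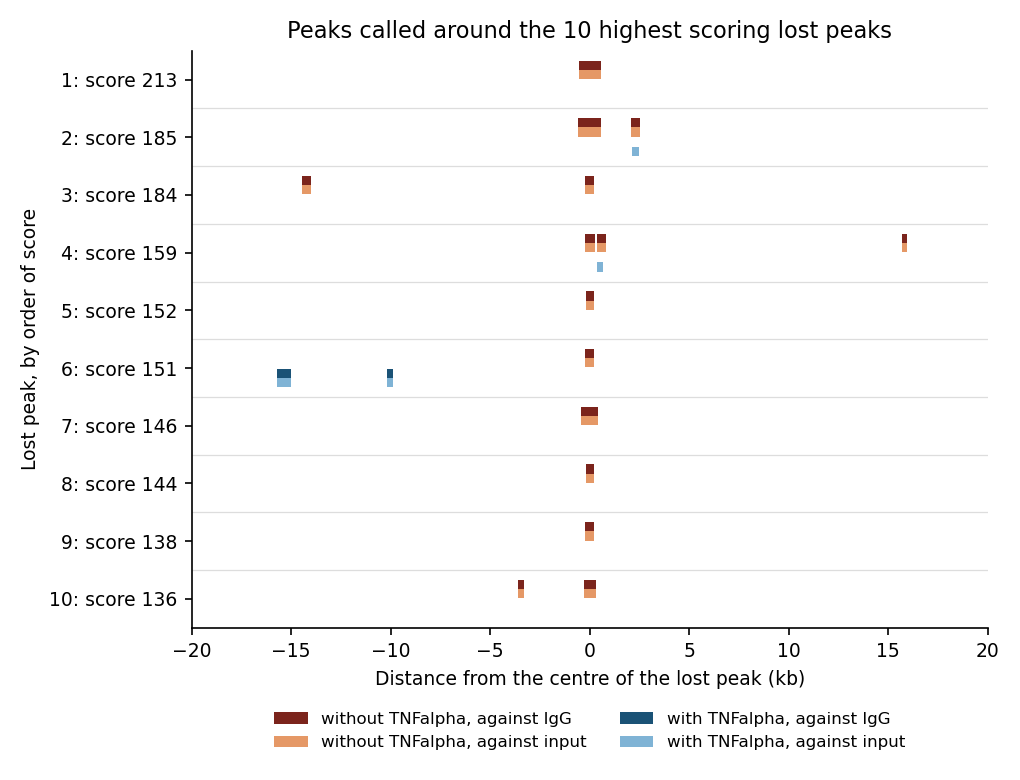
Peaks called within 20 kb of the centre of each of the 10 lost peaks of highest score (1 row each, horizontal axis in kb), drawn to scale, with calls without TNFalpha in red (against IgG) and orange (against input) and calls with TNFalpha in dark blue (against IgG) and light blue (against input). Blue bars appear in 3 of the 10 rows, those of scores 185, 159 and 151.

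The 3 lost peaks of lowest score lay at chr5:55865464-55865775 (score 50.1), at chr15:67341846-67342185 (50.1) and at chr8:49383237-49383567 (50.2). The third widest lost peak, after those on chromosomes 8 and 10, lay at chr19:9165450-9166420 and was 971 bp wide with a score of 92.3. A subset of 122 lost peaks (19.7%, 95% Wilson interval 16.7 to 23.0%) was in the upper 50% of both lists without TNFalpha, and 83 of these were also over 20 kb from any peak with TNFalpha. That is close to the share among all 620 lost peaks, of which 416 (67.1%) lay that far. Of the kept peaks, 1440 (58.4%) were in the upper 50% of both lists.

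Lost peaks lay farther from kept peaks than kept peaks lay from each other. The median distance from a lost peak to the nearest kept peak, edge to edge, was 228 kb (95% binomial interval 185 to 278 kb) over the 619 lost peaks with a kept peak on the same sequence. A kept peak lay at a median of 135 kb (124 to 149 kb) from the nearest other kept peak. Within 20 kb of a kept peak lay 93 of 620 lost peaks (15.0%, 95% Wilson interval 12.4 to 18.0%) and 572 of 2466 kept peaks (23.2%, 21.6 to 24.9%). The same direction was found in each of the 8 score deciles with at least 20 lost peaks. In the lowest decile the medians were 196 kb for lost and 175 kb for kept peaks, in the fifth 222 and 127 kb, and in the eighth 334 and 153 kb. The 142 lost peaks in the upper 50% of the list lay at a median of 436 kb from kept peaks of that set. That set held 1511 of the 2466 kept peaks, so this distance cannot be compared with those above.

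**Figure D4:**
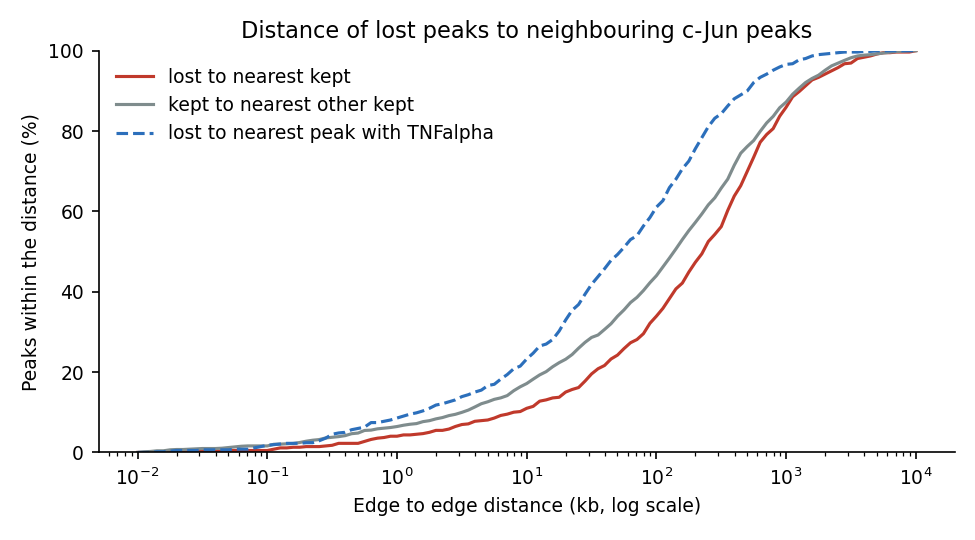
Percentage of peaks (vertical axis) whose nearest neighbour lies within a given edge to edge distance in kb (horizontal axis, log scale), for lost peaks to kept peaks (red), kept peaks to other kept peaks (grey) and lost peaks to any peak with TNFalpha (blue, dashed). The red curve crosses 50% at 228 kb, the grey at 135 kb and the blue at 50.9 kb.

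Peaks with TNFalpha of any kind came closer; these lists hold 12479 peaks in all, with a site counted once per list, against 2466 kept peaks. Here the median distance was 50.9 kb. Of the 620 lost peaks, 11 lay within 100 bp of a peak with TNFalpha, 37 within 500 bp, 53 within 1 kb (8.55%, 95% Wilson interval 6.59 to 11.0%) and 103 within 5 kb (16.6%, 13.9 to 19.7%). At the other end, 242 had none within 100 kb (39.0%, 35.3 to 42.9%) and 22 none within 1 Mb. Both counts include the lost peak that has no peak with TNFalpha on its sequence. The 53 lost peaks within 1 kb and the 242 beyond 100 kb had similar scores against IgG, with medians of 61.9 (95% binomial interval 57.2 to 66.8) and 64.1 (61.5 to 65.9), and similar widths of 342 and 331 bp. Against input the medians were 80.5 (70.5 to 97.2) and 96.2 (92.1 to 102), intervals that overlap.

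The peak with TNFalpha nearest to a lost peak was about as often one present in both conditions as one seen only with TNFalpha. Over the 619 lost peaks with a peak with TNFalpha on the same sequence, it also overlapped a peak without TNFalpha in 314 cases (50.7%, 95% Wilson interval 46.8 to 54.6%) and was seen only with TNFalpha in 305. Of the 103 lost peaks with a TNFalpha peak within 5 kb, the nearest such peak also overlapped a peak without TNFalpha in 65 cases (63.1%, 95% Wilson interval 53.5 to 71.8%) and was seen only with TNFalpha in 38. Over both lists with TNFalpha, 55.5% of peaks overlapped a peak without it, with 62.1% in the IgG-controlled and 51.9% in the input-controlled list. Of the 619 nearest peaks, 386 came from the IgG-controlled and 233 from the input-controlled list. The 55.5% counts a site once per list and mixes the lists in another proportion, so it cannot be compared with the shares of nearest peaks. Within 500 bp the split was 19 and 18, within 1 kb it was 31 and 22, and within 20 kb it was 112 and 92. These sets are nested, and the share showed no steady trend with distance.

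Some peaks lay close to the limit of the rule. The lost peaks closest to a peak with TNFalpha were at chr2:189494102-189494362 (gap 14 bp, score 69.3), at chr5:70897043-70897317 (17 bp, score 57.2) and at chr6:163420970-163421282 (18 bp, score 78.9). On the other side of the limit, the kept peak with the smallest overlap was at chr18:22868986-22869344, which shared 28 bp with a peak with TNFalpha. In all, 4 lost peaks had a gap of at most 50 bp and 2 kept peaks an overlap of less than 50 bp. The overlap covered less than 50% of the width of 60 of the 2466 kept peaks, and when overlap of at least 50% of both peaks was required, 794 peaks counted as lost. The lost peaks farthest from any peak with TNFalpha were at chr6:65230027-65230340 (4.90 Mb), at chr15:55919970-55920276 (3.56 Mb) and at chr12:43150779-43151063 (2.70 Mb).

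Most lost peaks had no other both-control peak nearby. When both-control peaks at most 50 kb apart were chained, the 620 lost peaks fell into 590 chains, of which 560 held 1 lost peak, 30 held 2 and 0 held more. In 451 of the 590 chains there was no kept peak. A lost peak was alone in its chain in 434 cases (70.0%, 95% Wilson interval 66.3 to 73.5%), and a kept peak in 1522 of 2466 (61.7%, 59.8 to 63.6%). Of the 186 lost peaks that were not alone, 60 shared their chain with another lost peak (32.3%, 95% Wilson interval 26.0 to 39.3%). A chain can hold several other peaks, so this share cannot be compared with the 20.1% lost among all both-control peaks. Whether losses cluster was not tested. Of the 30 chains with 2 lost peaks, 17 held no kept peak.

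Of those 30 chains, the 5 with the highest summed score of lost peaks are named. At chr5:151064446-151079126, the third highest lost peak was accompanied by a lost peak of score 101 at chr5:151064446-151064865, and the nearest kept peak was 989 kb away. On chromosome 10, the highest lost peak was accompanied by one of score 66.2 at chr10:78476916-78477259. A chain at chr14:100562897-100571304 held lost peaks of scores 96.8 and 127, 339.9 kb or more from a kept peak. A chain at chr3:10641890-10643283 held lost peaks of scores 103 and 99.2 within 1.39 kb. The chain at chr4:86953668-86969887 was that of the adjacent pair described above, with a further lost peak of score 65.0 at its far end.

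Lost peaks were found on each of the 23 chromosomes with both-control peaks (1 to 22 and X), and 1 lay on a sequence assigned to chromosome 1 without a position. The largest numbers were on chromosomes 5 (56), 3 (55), 1 (53) and 6 (50). As a share of both-control peaks, losses ran from 13.3% on chromosome 20 (15 of 113) to 33.3% on chromosome 22 (6 of 18), with a median of 20.7%. The 95% Wilson interval left out the overall 20.1% on 2 of the 23 chromosomes. These were chromosome 8, with 39 of 273 lost (14.3%, 10.6 to 18.9%), and chromosome 12, with 30 of 104 lost (28.8%, 21.0 to 38.2%). The intervals were not adjusted for the number of chromosomes.

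Scores also differed between chromosomes. The median score of both-control peaks was 93.7 on chromosome 8 and 72.9 on chromosome 12, and over the 23 chromosomes the lost share and the median score had a Spearman's rho of -0.72, given as a description since lost peaks are part of both measures. When each peak was assigned the lost share of its own score decile, the share came to 17.1% on chromosome 8 and 23.7% on chromosome 12. On each of the 23 chromosomes the Wilson interval of the observed share included the share obtained from the score deciles. The decile shares were taken from the same peaks, and intervals were wide where peaks were few, such as 16.3 to 56.3% on chromosome 22. Whether score accounts for the differences between chromosomes was not tested.

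**Figure D5:**
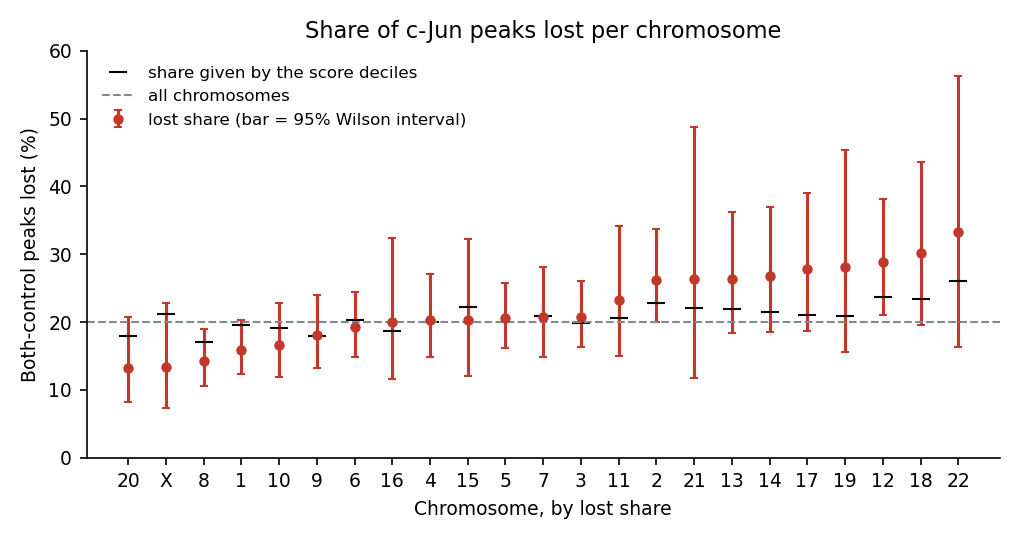
Percentage of both-control peaks that were lost (vertical axis, red points with 95% Wilson intervals) per chromosome (horizontal axis, ordered by that percentage), with black dashes for the share obtained from the score deciles of the chromosome's peaks and a dashed line at the overall 20.1%. The points run from 13.3% on chromosome 20 to 33.3% on chromosome 22, and each black dash lies inside its interval.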

How the data were processed

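The submitters' processing notes name CASAVA 1.8, Bowtie 0.12.9 and the hg19 build. The 4 deposited lists hold, per the labels, peaks of each c-Jun library against IgG and against input. Peak names begin with MACS. The version and threshold of that peak caller are not stated in the labels or files. The score in each deposited list was made by the authors' peak caller, on a scale that neither the labels nor the files state, and scores were described and ranked only inside a list.

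Start positions were raised by 1. Distances are edge to edge. Intervals are 95% Wilson intervals for shares and binomial order-statistic intervals for medians. They cover counting error only and treat peaks as independent. A count of 0 is given a limit of 3 counts. Score deciles were taken over the 3086 both-control peaks. Without an hg19 genome or annotation, genes, gene parts and sequences at the peaks were not analysed here.

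The named peaks are the 10 lost peaks of highest score, the 3 nearest to and 3 farthest from a peak with TNFalpha, the 3 widest, the 3 of lowest score, the peaks at the limit of the rule, and 5 chains with the most lost peaks, with ties broken by summed score after the lists were seen. The members and lists were chosen with earlier results of these data known. Python 3.11.15, numpy 2.4.6, pandas 2.3.3, scipy 1.17.1 and matplotlib 3.10.9 were used. Overlap counts were checked against bedtools 2.31.1 in 24 comparisons of the deposited lists, and 0 differed. The overlap code was also tested on simulated data.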

Additional observations from a re-analysis of the deposited data

How the results depend on the processing

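No paired analysis was possible because there was a single c-Jun library with TNFalpha and a single one without it, which also means that leaving out a library was not an option. Depth is unknown and limits any statement that a site was not bound with TNFalpha. The main values were 620 lost peaks, 20.1%, a median rank of 2306, a median width of 337 bp and a median distance of 228 kb to the nearest kept peak. Reciprocal overlap of at least 50% gave 794 lost peaks (25.7%) and a median rank of 2222.5. With peaks within 1 kb counted as hits the share was 18.4%. With hits only to both-control peaks with TNFalpha there were 1020 lost peaks (33.1%), with a median rank of 2245 and a median width of 350 bp. The IgG-controlled lists alone gave 1082 of all 3323 IgG-controlled peaks (32.6%). The higher scoring 50% of the list gave 142 (8.59%), with a median rank of 1183.5, as fewer ranks were allowed. Their median width was 410 bp, and their median distance was 436 kb to the fewer kept peaks of that set. The distance to any peak with TNFalpha was 50.9 kb. Hits within 500 bp, chromosomes 1 to 22 and X alone, and distances between centres moved no value outside its interval. The same held for an alternative chosen after seeing the data, in which the lists with TNFalpha were shortened to the 3323 and 7919 highest scoring peaks, with 659 lost peaks (21.4%). The intended motif and gene start shares were not run.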

Other observations

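Among the 7919 input-controlled peaks without TNFalpha, 4833 were not called against IgG, and 3112 of these overlapped no peak of either list with TNFalpha (64.4%, 95% Wilson interval 63.0 to 65.7%), against 20.1% of the 3086 that were called against IgG as well. The 3112 peaks had a median input score of 57.3 and a median width of 195 bp, below the 93.1 and 337 bp of the 620 lost peaks called against both controls. They lay about as often near those 620 peaks as near kept peaks, and other positions of the genome were not compared. Of the 620, 65 had one of the 3112 within 20 kb (10.5%, 95% Wilson interval 8.31 to 13.1%), and of the 2466 kept peaks 285 did (11.6%, 10.4 to 12.9%).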
